A study of Mus musculus with 27 samples.

Results

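Day 0 cultures of Per1-/- and WT mouse embryonic fibroblasts (MEFs) were compared by bulk RNA-seq, to see how the genotypes differed before reprogramming into induced neurons (iNs) began and how much replicate cultures of 1 genotype differed among themselves. The libraries were chosen by genotype and day alone: 3 Per1-/- and 3 WT libraries of day 0, 6 of the 27 in the series. All 6 cultures carried the same treatment. They had received lentiviruses for the doxycycline-driven BAM factors and for the M2rtTA activator 3 days earlier, and on day 0 doxycycline had not yet been given. Per1-/- cells carried the B6.129-Per1 tm1Drw allele on both chromosomes, and the WT cells came from mice obtained by breeding in the same study, with littermates not stated. The MEFs were made from mid-gestation embryos without head and heart, several embryos were pooled in a dish, and sex was not determined. Each group is therefore a set of pooled primary cultures. The labels call the replicates biological without naming separate dishes or litters. The p-values therefore measure the spread between libraries, pooled over the 9 groups of genotype and day in the series. The other libraries are the same genotypes on days 2 and 4 and a set labelled Per2-/-, in which Per2 was higher than in WT at each replicate of day 0 (1.87 to 2.00 against 0.82 to 0.96 FPKM).

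PER1 is a repressor of the circadian clock. CLOCK and BMAL1 (the product of Arntl) drive transcription of the Per and Cry genes, and the PER and CRY proteins in turn inhibit CLOCK and BMAL1, while REV-ERB and ROR receptors set the level of Arntl. MEF cultures are mostly fibroblasts, but a whole-embryo preparation can also hold myoblasts, chondrocytes, mesothelial cells and macrophages. In bulk samples fewer cells of a type and less RNA per cell cannot be told apart.

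The 6 libraries held 16846708 to 23586020 fragments assigned to genes, and Per1-/- replicates 2 and 3 were the shallowest. Expression is given as FPKM, a level scaled to the length of the gene and to the size of the library. Per1-/- replicate 1 stood apart before any comparison of genotypes. Xist, the RNA that silences an X chromosome in female cells, was at 0.00288 FPKM there and at 11.1 to 17.2 FPKM in the other 5 libraries. The Y-linked genes were highest in the same library: Ddx3y was at 21.9 FPKM against 7.28 to 10.6 in the other 5, and Kdm5d at 2.15 against 0.558 to 0.893. The Per1-/- libraries numbered 1 on days 2 and 4 had the same pattern, with Xist at 0.00478 and 0.00271 FPKM, so the libraries of 1 number had this feature in common over the days. The other 5 libraries of day 0 held both Xist and Y-linked RNA.

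**Figure D1:**
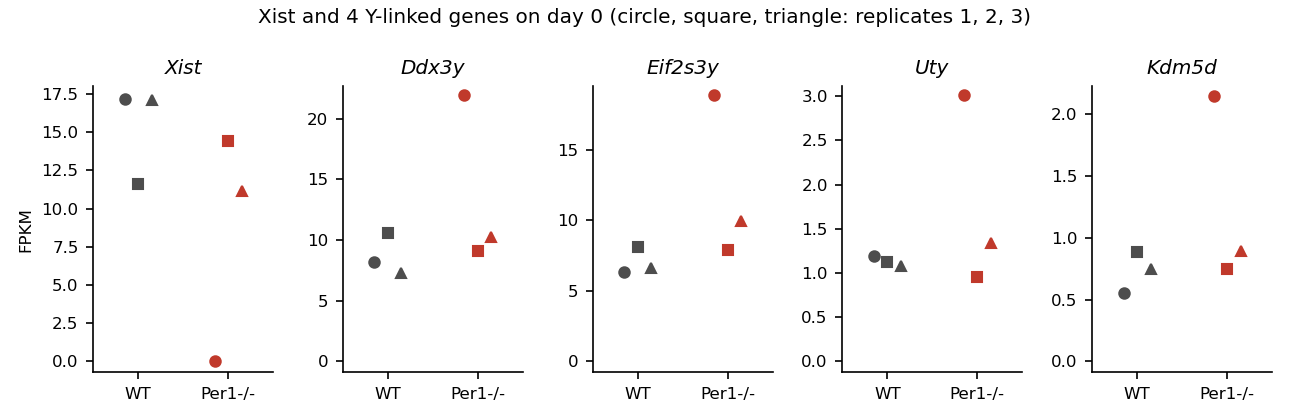
FPKM of Xist and of 4 Y-linked genes in the 6 libraries of day 0, with 1 point per library, grey for WT and red for Per1-/-, and with circles, squares and triangles for replicates 1, 2 and 3. Per1-/- replicate 1 has Xist at 0.00288 FPKM and the highest value of each Y-linked gene.

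The labels call all samples induced neurons, yet the day 0 libraries carried the RNA of fibroblasts. Col1a1, a chain of fibrillar collagen, was at 901 to 1564 FPKM, and Vim, the mesenchymal intermediate filament, at 964 to 1462 FPKM over the 6 libraries. The neuronal microtubule protein Map2 was at 0.286 to 1.26 FPKM, while Tubb3, another neuronal gene, was higher, as given below. Summed over the list, 25 neuronal genes reached 87.9 to 141 FPKM and 18 fibroblast markers 4144 to 5427 FPKM in the 6 libraries. None of the 18 fibroblast markers passed an unadjusted p of 0.05 with a fold of 1.5 between the genotypes, and their median log2 difference was -0.02 (all 14932 tested genes: -0.01). Of the BAM factors, Pou3f2 (Brn2) and Myt1l were close to silent, at most at 0.0278 and 0.0185 FPKM in any of the 6.

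Per1 RNA was still present in Per1-/- cultures. It was at 6.33, 5.58 and 5.44 FPKM in WT replicates 1 to 3 and at 4.96, 3.23 and 4.15 FPKM in Per1-/- replicates 1 to 3, so each knockout library lay below each WT library. The difference was -0.50 on the log2(FPKM + 0.1) scale (SE 0.138, n = 3 per genotype) and did not pass adjustment (limma, Benjamini-Hochberg adjusted p = 0.771). A value over the whole gene does not check the deleted part and so says nothing on the labels. On days 2 and 4 the Per1 difference was -0.19 and -0.21. Per2 was at 0.906, 0.957 and 0.82 FPKM in WT and at 1.13, 1.02 and 1.25 FPKM in Per1-/-, without overlap, at a log2 difference of 0.31 (limma adjusted p = 0.994). Per3 overlapped between the genotypes (0.86, 1.13 and 0.98 against 1.94, 0.84 and 1.92 FPKM).

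Among the other clock genes no call was made either. Of the 4 tested activators and their partners, 0 passed the unadjusted p with a fold of 1.5, against 339 of all genes (2.27%), and of the 14 repressors and kinases 0 passed. Arntl, the activator partner of Clock, was at 3.51, 3.23 and 4.71 FPKM in WT and at 2.85, 3.48 and 2.48 FPKM in Per1-/-, a log2 difference of -0.36 (limma adjusted p = 1), and Clock itself differed by -0.19. Dbp, an output gene driven directly by CLOCK and BMAL1, was at 3.25, 3.70 and 2.46 against 5.42, 2.04 and 5.79 FPKM, with Per1-/- replicate 2 below all WT libraries. Sampling time within the circadian day was not given, and its part in these values was not tested.

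Of the 14932 genes that averaged 0.5 FPKM or more over the series, 2 rose in Per1-/- cultures at an adjusted p of 0.05 and a fold of 1.5 (0.0134% of genes tested, limma with Benjamini-Hochberg adjustment) and 0 fell. At an unadjusted p of 0.05 with the same fold, 188 were higher (1.26%) and 151 lower (1.01%). All 3 Per1-/- libraries lay above all WT libraries for 345 genes (2.31%) and below them for 418 (2.8%). The genes called were Gm6685 and Xaf1, both on chromosome 11, which also carries Per1.

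Gm6685 (ENSMUSG00000032889) is a single-exon gene annotated as protein-coding on the minus strand at chr11:28339104-28339867 of GRCm38, 40.8 Mb from Per1. It is a near copy of Cyb5d1 (ENSMUSG00000044795, chr11:69391925-69395631, minus strand), which encodes a cytochrome b5 domain protein and lies 0.297 Mb from Per1. The copy lacks the introns: Gm6685-201 matched the spliced 4-exon transcript Cyb5d1-201 over 751 bases at 99.33% identity, with 5 mismatches and no gaps. Counted from 1 at the 5' end of Gm6685-201, with the Gm6685 base first, these are C145T, A326G, T334G, G356A and T615G. The stretch that holds 4 of them is printed here because it shows how little separates both transcripts where they align. It lies in the coding part of each transcript (bases 117 to 356 of Gm6685-201 and bases 104 to 343 of Cyb5d1-201, GENCODE vM21), capitals mark the mismatches, and in Cyb5d1 it crosses the exon junctions after bases 200 and 277.
Gm6685: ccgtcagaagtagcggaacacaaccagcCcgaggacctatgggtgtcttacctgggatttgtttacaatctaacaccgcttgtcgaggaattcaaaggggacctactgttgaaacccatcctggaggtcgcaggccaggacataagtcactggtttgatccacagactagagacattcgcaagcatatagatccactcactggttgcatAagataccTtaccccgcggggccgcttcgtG
Cyb5d1: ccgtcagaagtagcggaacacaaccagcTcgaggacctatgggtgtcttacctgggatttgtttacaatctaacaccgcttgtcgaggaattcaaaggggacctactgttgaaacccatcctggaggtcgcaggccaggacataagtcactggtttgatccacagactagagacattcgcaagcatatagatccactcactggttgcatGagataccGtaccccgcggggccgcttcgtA

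Gm6685 was at 1.24, 1.77 and 0.913 FPKM in WT and at 5.82, 6.54 and 6.12 FPKM in Per1-/- replicates 1 to 3. The groups were far apart compared with the spread inside either one. It rose by 2.20 on the log2 scale (SE 0.320, limma adjusted p = 0.0138), and the 3 libraries labelled Per2-/- were at 1.41, 1.11 and 0.76 FPKM. The value lay between 1.98 and 2.42 when any 1 library was left out, but the call was lost in 4 of these 6 fits and in 7 of 18 other settings in all (adjusted p up to 0.514). Cyb5d1 was at 12.7, 14.9 and 16.6 FPKM in WT and at 11.2, 10.5 and 9.58 FPKM in Per1-/-, without overlap. Its log2 difference of -0.49 (SE 0.125) did not pass adjustment (limma adjusted p = 0.761).

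Since both genes share nearly all their bases, their fragments were also read together. In WT libraries 18, 28 and 14 fragments were assigned to Gm6685 and 388, 493 and 533 to Cyb5d1. In Per1-/- libraries the counts were 86, 77 and 69 for Gm6685 and 347, 261 and 227 for Cyb5d1. The share assigned to Gm6685 was 4.12% ± 1.43 in WT and 22.0% ± 1.86 in Per1-/- (SD, n = 3), and 3.61% ± 0.920 in the libraries labelled Per2-/-. An exact two-sided permutation test gave p = 0.1 for Per1-/- against WT, the smallest p that 3 against 3 allows. The sum of both genes was 24.6 ± 3.01 FPM in WT and 21.5 ± 1.24 in Per1-/-, where FPM is FPKM multiplied by the gene length in kilobases, and the log2 difference was -0.19 (SE 0.117, limma adjusted p = 1). The share of Gm6685 was thus higher in all knockout libraries while the sum was not, and whether any fragment was assigned to the wrong copy was not tested. On days 2 and 4 the Gm6685 share was 17.0% and 21.4% in Per1-/- against 4.14% and 4.32% in WT.

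**Figure D2:**
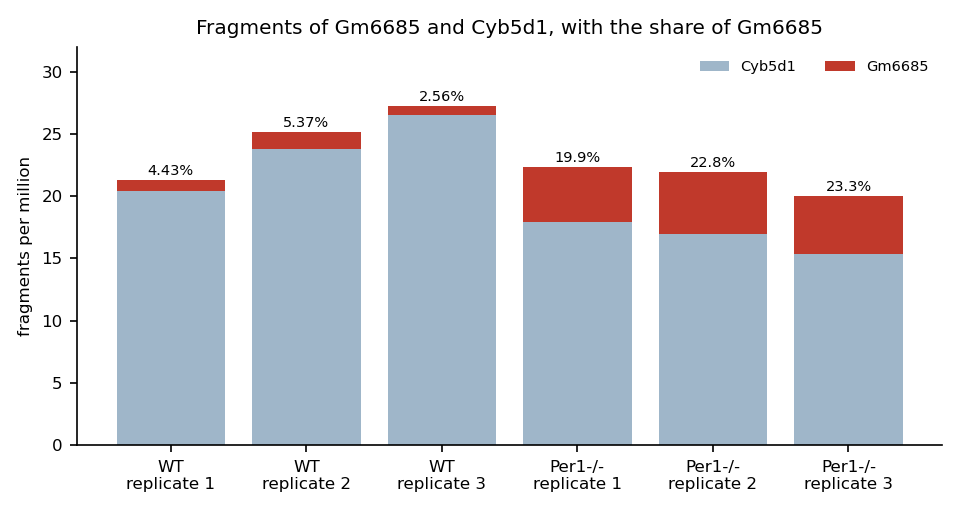
Stacked bars of the fragments scaled to library size (FPM) assigned to Cyb5d1 (blue) and Gm6685 (red) in each of the 6 libraries of day 0, with the share of Gm6685 in percent above each bar. The share is 2.56% to 5.37% in WT and 19.9% to 23.3% in Per1-/-, while the bar heights of both genotypes overlap.

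Xaf1 (ENSMUSG00000040483, chr11:72301629-72313733, plus strand), an interferon-inducible gene whose protein binds the apoptosis inhibitor XIAP, lies 3.21 Mb from Per1. It was at 0.37, 0.433 and 0.446 FPKM in WT and at 2.57, 1.22 and 2.02 FPKM in Per1-/- replicates 1 to 3. All 3 knockout libraries were above all WT libraries. Xaf1 rose by 1.92 on the log2 scale (SE 0.332, limma adjusted p = 0.0486), and the value lay between 1.70 and 2.21 when any 1 library was left out. The call itself was lost in 13 of 18 other settings of the analysis. The libraries labelled Per2-/- had 0.291, 0.905 and 0.471 FPKM.

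Few other interferon-stimulated genes passed a threshold beside Xaf1. Of 43 tested interferon-stimulated genes, Xaf1 alone was called, and the median log2 difference of the list was 0.07 (-0.08 to 0.23 when any 1 library was left out). The mean over the list, set against the WT mean, was 0.31, -0.34 and 0.30 in Per1-/- replicates 1 to 3, lowest in the library where Xaf1 was lowest among the knockouts. At the unadjusted p with the fold of 1.5, Xaf1 and Psmb8 (an immunoproteasome subunit, 0.73, 0.336 and 0.583 against 1.15, 0.569 and 1.91 FPKM) were higher, 2 of 43 against 1.26% of all genes, and Rtp4, a receptor transporter, was lower. Without Per1-/- replicate 2, 4 were higher. Isg15 and Ifit1, which respond to type I interferon, differed by -0.18 and 0.17, each with limma adjusted p = 1.

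Lrrc75a, a leucine-rich repeat gene at chr11:62604884-62648523 (minus strand, 6.49 Mb from Per1 on its other side), rose at the adjusted p but by less than the fold of 1.5. It was at 7.32, 7.24 and 7.61 FPKM in WT and at 11.1, 9.35 and 11.1 FPKM in Per1-/-, a log2 difference of 0.50 (SE 0.083, limma adjusted p = 0.0486). The difference was 0.12 on day 2 and -0.02 on day 4. The difference between day 4 and day 0 was -0.51 (unadjusted p = 0.000267, limma adjusted p = 1).

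**Figure D3:**
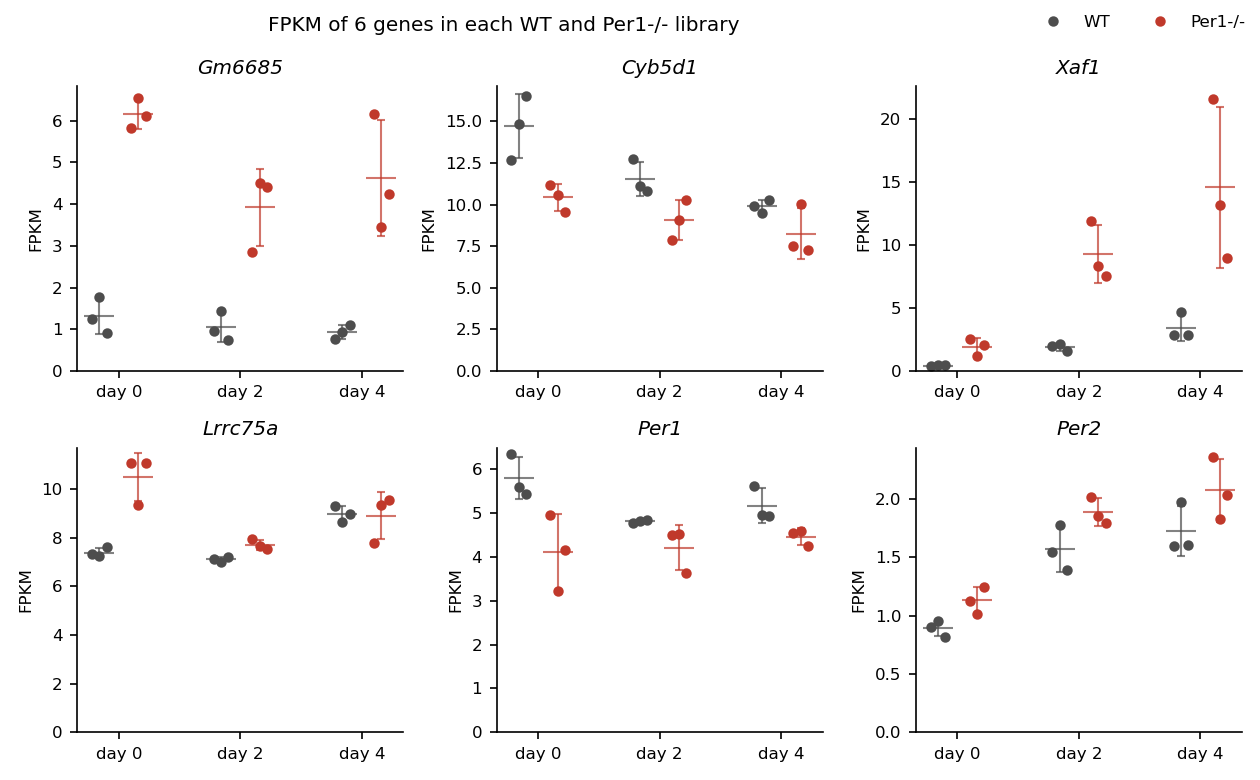
FPKM of Gm6685, Cyb5d1, Xaf1, Lrrc75a, Per1 and Per2 in each WT (grey) and Per1-/- (red) library on days 0, 2 and 4, with bars for the mean and SD of 3 libraries. Gm6685 and Xaf1 do not overlap between the genotypes on any of the 3 days, and Lrrc75a lies farthest apart on day 0, at means of 7.39 and 10.5 FPKM.

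The genes with the smallest p lay on chromosome 11 more often than its share of the genome. This chromosome held 1194 of the 14932 genes tested and 3 of the 3, 4 of the 10 and 12 of the 50 genes with the smallest p. Within 5 Mb of the Per1 start, 21 of 122 tested genes passed an unadjusted p of 0.05 (17.2%), against 4.82% of all genes. At 5 to 20 Mb the share was 6.49% (25 of 385), over the rest of chromosome 11 it was 4.22%, and over the other chromosomes 4.69%. Values that did not overlap between the genotypes were found for 22 of the 122 genes (18.0%, against 5.11% of all genes). Leaving out WT replicate 3 gave 12.3% within 5 Mb against 6.35% of all genes, and leaving out Per1-/- replicate 2 gave 21.3% against 9.52%, the lowest and highest counts (15 and 26) of the 6 such fits. Neighbouring genes are not independent, and no test was made of these counts. The allele and the chromosome 11 sequence that was inherited with it cannot be told apart in this design.

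The 21 genes went both ways, 9 higher and 12 lower, and 16 of them kept their direction on both later days (76.2%, against 52.6% of the genes past the same p overall). Apart from Xaf1 none passed adjustment. Tmem88, an inhibitor of Wnt signalling 0.301 Mb from Per1, was at 9.60, 8.77 and 8.92 FPKM in WT and at 2.91, 3.81 and 4.92 FPKM in Per1-/-, a log2 difference of -1.24 (limma adjusted p = 0.806) that was -0.91 on day 2 and -0.95 on day 4. Tax1bp3, a PDZ protein, was lower by a small amount in each library (23.6, 23.1 and 22.8 against 18.3, 20.2 and 19.3 FPKM), and part of its transcript is identical to Gm13597. C1qbp, a mitochondrial matrix protein, differed by -0.32, -0.28 and -0.42 on days 0, 2 and 4. On the higher side, Rnf227, a RING finger gene, was at 0.808, 0.488 and 0.695 FPKM in WT and at 1.09, 1.53 and 1.07 FPKM in Per1-/-, and the ubiquitin ligase gene Rnf167 at 2.20, 2.91 and 2.52 against 3.78, 3.08 and 3.08 FPKM. Both were also above WT in the libraries labelled Per2-/-, Rnf227 at 1.09, 0.994 and 1.65 FPKM and Rnf167 at 3.466, 3.238 and 3.495 FPKM. Tmem88 was at 11.2, 9.36 and 6.94 FPKM in those libraries, on either side of WT. Slc16a11, a monocarboxylate transporter, differed by 0.95 on day 0 and by 0.17 and 0.14 later. The small RNA gene Gm22075 had the largest difference, 3.08, but was at 0 in 2 WT libraries and turned to -2.51 on day 2.

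Pitpnm3, a phosphatidylinositol transfer gene 2.95 Mb from Per1, was under the filter on low values and was picked out after its values were seen. It was at 0.0482, 0.064 and 0.0102 FPKM in WT (9, 13 and 2 fragments) and at 0.484, 0.549 and 0.338 FPKM in Per1-/- (92, 83 and 49 fragments). With all genes above 0 in the test it rose by 1.99 on the log2 scale (limma adjusted p = 6.08e-04). The means stayed apart later, at 0.133 against 0.40 FPKM on day 2 and 0.145 against 0.366 FPKM on day 4, and the libraries labelled Per2-/- were at 0.0324 to 0.0579 FPKM on day 0.

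**Figure D4:**
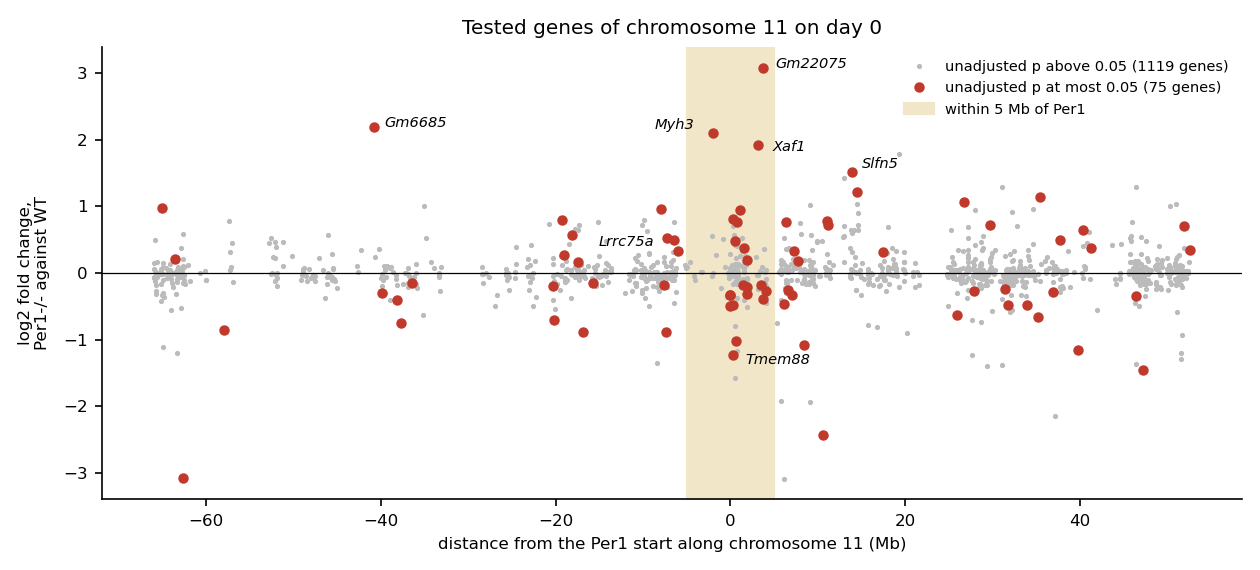
Log2 fold change of Per1-/- against WT on day 0 (vertical axis) for each tested gene of chromosome 11 by its distance from the Per1 start in Mb (horizontal axis). Red points mark the 75 genes with an unadjusted p of at most 0.05, of which 21 lie in the shaded 5 Mb on either side of Per1.

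The largest differences whose libraries did not overlap were in genes of varied kinds. The rule names 12 genes in each direction, and except for Gm6685 and Xaf1 none passed adjustment. Muscle genes made up a part of the higher side: Actc1 (cardiac actin) was at 2.44, 0.747 and 0.77 FPKM in WT and at 3.35, 29.9 and 2.93 FPKM in Per1-/-, and Myod1, Myh3 and Mymx, which specify, build and fuse muscle fibres, were also higher in all knockout libraries. In each the highest value was in Per1-/- replicate 2. Ndufa4l2, a hypoxia-inducible mitochondrial protein, had the largest difference, at 0.288, 0.309 and 0.319 against 7.88, 2.02 and 1.42 FPKM (log2 2.87, limma adjusted p = 0.771). Of 22 glycolysis and hypoxia genes tested, 19 had a positive difference (median 0.12), 0 were higher and 1, Ankrd37, was lower at the unadjusted p with the fold, against 1.26% and 1.01% of all genes.

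Slc25a18, the mitochondrial glutamate carrier, had values that were low but tight, 0.055, 0.0759 and 0.104 against 0.379, 0.407 and 0.461 FPKM (log2 1.54, limma adjusted p = 0.325). It passed the test with a pseudocount of 0.01 in place of 0.1. Slfn5, an interferon-inducible gene on chromosome 11, was at 0.224, 0.13 and 0.181 against 1.01, 0.349 and 0.889 FPKM, and differed by 1.24 on day 2 and 1.09 on day 4. Its transcript overlaps Slfn5os and holds repeats, and Srp54b, also among the 12, is 99.73% identical to Srp54c, so their counts are uncertain. Prdm6, a smooth muscle regulator, and Mchr1, the receptor for melanin-concentrating hormone, were the others of the 12.

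On the lower side, Hoxa13, which patterns the most distal limb, was at 5.66, 11.5 and 4.78 FPKM in WT and at 2.19, 2.78 and 2.14 FPKM in Per1-/- (log2 -1.49, limma adjusted p = 0.929), and stayed lower on days 2 and 4 (-1.18 and -1.15). The 34 Hox genes tested had a median of 0.06. Bmp8b, a BMP ligand, and Tfap2b, a transcription factor of neural crest and limb, differed by -1.98 and -1.70. Msln, the mesothelial surface protein mesothelin, was at 79.6, 93.9 and 72.3 against 29.4, 30.1 and 46.7 FPKM (log2 -1.23, limma adjusted p = 0.956), and differed by 0.28 and 0.37 on days 2 and 4. The 10 epithelial and mesothelial markers tested, Msln among them, had a median of 0.29, with 6 of 10 above 0. Wfdc2, a secreted protease inhibitor of epithelia, was at 11.8, 11.4 and 11.5 against 1.13, 7.11 and 1.49 FPKM.

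Lipg (endothelial lipase), Rnf157 (a ubiquitin ligase on chromosome 11), Hsf4 (a heat shock factor), Syngr3 (a synaptic vesicle protein), Rnf39 and Fam181b were the others with Tmem88. Rnf157 was at 2.31, 2.55 and 2.95 against 0.672, 1.76 and 0.554 FPKM and differed by -1.92 and -1.49 on days 2 and 4. Fam181b shares 1138 bases with Gm9934, and its counts are uncertain.

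By gene list, the larger differences between Per1-/- and WT followed single knockout cultures, and the libraries labelled Per2-/- also differed among themselves. Among 17 skeletal muscle genes tested (of 26 listed), 13 were higher at the unadjusted p with the fold and 0 lower. Over all genes the shares were 1.26% and 1.01%. The median log2 difference of the list was 1.31. The mean over these genes, set against the WT mean, was 0.50, 3.12 and 0.46 in Per1-/- replicates 1 to 3 and 0.55, -0.53 and -0.02 in WT. In the libraries labelled Per2-/- it was 0.44, 0.84 and 0.85. Without Per1-/- replicate 2 the count was 4 and the median 0.47. Myog, which drives myoblast differentiation, was at 0.622, 9.50 and 0.272 FPKM in the knockout libraries, and Mylpf, a fast muscle myosin light chain, at 2.34, 21.6 and 2.36 FPKM. Acta1, the most abundant gene of the list, did not follow them, with 308, 179 and 274 FPKM in WT and 48.7, 138 and 375 FPKM in Per1-/-.

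Per1-/- replicate 2 also held other markers. The 13 cartilage and bone genes averaged 1.54 above the WT mean there and 0.31 and -0.44 in replicates 1 and 3, and Col2a1, the main collagen of cartilage, was at 5.89, 33.5 and 2.24 FPKM against 4.61, 7.13 and 2.33 FPKM in WT. In the libraries labelled Per2-/- these genes averaged 0.17, 0.22 and 2.89, and Col2a1 reached 116 FPKM in replicate 3. The 28 S phase and 30 mitosis genes averaged 0.64 and 0.66 above the WT mean in Per1-/- replicate 2 and were under it in the other Per1-/- libraries. None of these genes passed even the unadjusted p with the fold between the genotypes.

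Macrophage RNA was present in all 6 cultures and highest in Per1-/- replicate 3. The 33 macrophage markers tested (of 40 listed) all had a positive difference, at a list median of 0.55, yet 0 were called. At the unadjusted p with the fold 3 were higher (Pf4, Aif1 and Ms4a6b), against 1.26% of all genes. The mean over the list was -0.43, 0.24 and 1.92 in Per1-/- replicates 1 to 3 and 0.64, -0.34 and -0.29 in WT. In the libraries labelled Per2-/- it was 1.00, -0.98 and 0.90. Lyz2 (lysozyme) was at 296, 116 and 113 FPKM in WT and at 110, 208 and 573 FPKM in Per1-/-, and Csf1r, the receptor for M-CSF, at 8.82, 4.84 and 5.96 against 4.45, 7.17 and 24.1 FPKM. WT replicate 1 exceeded Per1-/- replicate 1 for both. The list median was -0.17 without Per1-/- replicate 3 and 1.04 without Per1-/- replicate 1, after which 10 markers passed the unadjusted p with the fold. It was 0.96 on day 2 and 0.90 on day 4.

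The list of inflammatory genes was highest on average in Per1-/- replicate 3, but not each gene was. Its mean, set against the WT mean, was 0.09, 0.12 and 0.51 in Per1-/- replicates 1 to 3. The most abundant members did not peak there: Csf1 was at 171, 91.0 and 153 FPKM in these libraries and Ptgs2 at 55.4, 149 and 130 FPKM. Of 23 tested cytokine and NF-kB genes, 0 passed the unadjusted p with the fold, at a median of 0.17. Tnf, a cytokine made by activated macrophages, was at 0.834, 0.324 and 0.487 FPKM in WT and at 0.946, 0.317 and 4.67 FPKM in Per1-/-. Fos, an immediate early gene, was also highest in Per1-/- replicate 3, at 38.0 FPKM against 2.75 to 14.5 FPKM in the other 5, and none of the 21 immediate early genes passed.

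**Figure D5:**
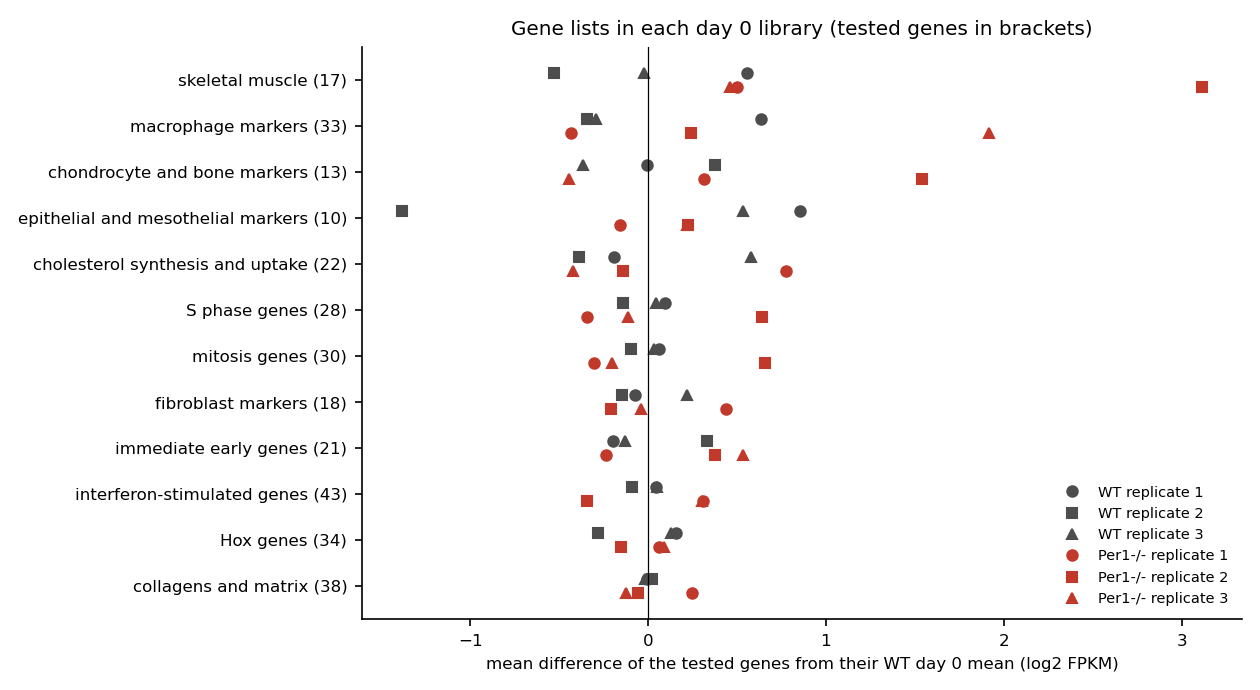
Mean difference of the tested genes of 12 lists from their WT day 0 mean (log2 FPKM, horizontal axis) in each library, grey for WT and red for Per1-/-, with circles, squares and triangles for replicates 1, 2 and 3. Per1-/- replicate 2 lies at 3.12 for skeletal muscle and 1.54 for chondrocyte and bone markers, Per1-/- replicate 3 at 1.92 for macrophage markers, and WT replicate 2 at -1.38 for epithelial and mesothelial markers.

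The other lists held few genes past the unadjusted p with the fold, but in several lists these were a larger share than over all genes. Over all genes, 1.26% were higher and 1.01% lower at the unadjusted p with the fold. Of 6 adipocyte markers, Cebpa (3.65, 2.51 and 1.85 against 10.6, 3.20 and 4.29 FPKM) and Lpl, a master regulator and a lipase of fat cells, were higher at the unadjusted p with the fold. Of 31 genes of the TGF-beta, BMP and IGF pathways, Igf1 was higher and Bmp2, Bmp4 and Id1 were lower. Id1, a direct BMP target, was at 75.6, 101 and 45.2 FPKM in WT and at 40.2, 42.0 and 56.0 FPKM in Per1-/-, so the groups overlapped. Of 21 neuronal genes, Tubb3 and Nefm were higher and Mapt, Stmn2 and Stmn3 were lower. Tubb3, a neuronal tubulin that fibroblasts in culture also express, was at 23.6, 20.6 and 22.7 FPKM in WT and at 46.2, 31.6 and 34.1 FPKM in Per1-/- (log2 0.72, limma adjusted p = 0.786) and differed by -0.03 and -0.09 on days 2 and 4. Of 34 Hox genes Hoxc11 was higher and Hoxa13 lower, and of 41 mesenchymal transcription factors Lhx9 was lower.

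No member passed the unadjusted p with the fold among 38 collagen and matrix genes, 18 contractile genes, 6 endothelial markers, 23 CDK inhibitor and p53 genes, 25 unfolded protein genes, 22 cholesterol genes, 22 NRF2 genes and 13 mitochondrially encoded genes. Their medians lay between -0.16 and 0.07. Of 10 epithelial and mesothelial markers Msln was lower, and of 10 Schwann and neural crest markers Tfap2b, against 1.01% of all genes. The 10 red blood cell genes were all under the filter, with a summed level of at most 0.358 FPKM in any of the 6 libraries.

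The difference between the genotypes was then compared across days. No gene was called for a change of the Per1-/- to WT difference from day 0 to day 2 or from day 0 to day 4 (limma with Benjamini-Hochberg adjustment), and 306 (2.05%) and 500 (3.35%) genes passed an unadjusted p of 0.05. Gm6685 differed by 1.83 on day 2 and 2.16 on day 4 (limma adjusted p = 0.0876 and 0.0179), and Xaf1 by 2.23 and 2.00 (0.0191 and 0.0295). The Xaf1 level itself was higher later in both genotypes: WT libraries reached 1.56 to 2.12 FPKM on day 2 and 2.84 to 4.66 FPKM on day 4, and Per1-/- libraries 7.56 to 11.9 and 8.98 to 21.6 FPKM. The labels do not state whether equal replicate numbers mark the same cultures over the days. Xist was low in the same-numbered Per1-/- library on each day, and the other numbers cannot be matched by Xist. Deviations from the group mean were also compared over days. For same-numbered Per1-/- libraries r was 0.29, 0.21 and 0.15 from day 0 to day 2, and 0.15, 0.14 and 0.06 to day 4. Between different numbers it was -0.21 to 0.04. In WT it was -0.02 to 0.06 for equal numbers and -0.07 to 0.03 for different ones. Taken around means of 3 libraries, these values cannot settle which numbers mark the same culture. Days 2 and 4 are therefore not taken as an independent repeat.

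The spread between replicate cultures was larger in Per1-/- than in WT on day 0. The mean Euclidean distance between libraries over the tested genes was 73.6 in WT (70.8 to 78.1), 93.1 in Per1-/- (90.4 to 97.7) and 81.6 between the genotypes (74.6 to 87.5) in log2 units. Any pair of knockout cultures was thus farther apart than any pair of a knockout and a WT culture. On days 2 and 4 the distances were 68.7 and 68.1 in Per1-/- and 69.7 and 67.5 in WT, and on day 0 the libraries labelled Per2-/- were 81.1 apart. The p-values rest on a spread pooled over all 9 groups, of which Per1-/- on day 0 was the widest by this distance. The SD of log2 values was larger in Per1-/- for 9935 of 14932 genes (66.5%), with a median SD of 0.247 against 0.170. The 3 distances were 57.3, 77.2 and 65.4 among genes of at least 1 FPKM, and 40.8, 56.1 and 47.0 with a pseudocount of 1. Per1-/- replicates 2 and 3 were also the shallowest libraries, and the part of depth in the spread was not tested.

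Each knockout culture stood apart by other genes. Among the 7665 genes averaging 5 FPKM or more, 58, 15 and 30 lay at least 1 log2 unit beyond all other 5 libraries in Per1-/- replicates 1 to 3, against 0, 18 and 0 in WT. Replicate 1 led in Sfrp1, a secreted Wnt antagonist (83.2 FPKM against 7.87 to 12.5), and in Ptx3, a secreted pentraxin (64.1 against 10.2 to 21.9). Replicate 2 led in the muscle and cartilage genes Actc1, Mylpf and Col2a1, and replicate 3 in the macrophage genes Mrc1 (22.3 FPKM against 3.79 to 6.39) and C1qa (82.2 against 10.6 to 25.4). WT replicate 2 led in Col10a1, the collagen of hypertrophic cartilage (24.9 FPKM against 0.56 to 4.75), and in Penk, a neuropeptide precursor (120 against 16.3 to 27.3), and was lowest in the keratin Krt8 (0.247 against 2.35 to 11.5).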

How the data were processed

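RNA of 27 cultures was sequenced as poly-T selected, nondirectional, paired-end libraries. Per the study's methods, the authors aligned reads to GRCm38 (mm10 in the submitters' processing notes) with HISAT2 2.0.5, counted fragments per gene with featureCounts 1.5.0-p3 without strand and tested with DESeq2. The deposited values are the authors' FPKM for 54532 genes, one column per library. Multiplied by gene length and divided by 1 factor per library, the value of a single fragment, they were whole numbers in each library (100% of values within 0.01), which gave the depths. Overlapping and antisense genes cannot be separated without strand.

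FPKM values were tested with limma 3.58.1 (R 4.3.3) on log2(FPKM + 0.1), a scale that understates changes of low genes, in a model of 9 groups of 3 libraries with a shared estimate of spread and Benjamini-Hochberg adjustment over the 14932 genes averaging 0.5 FPKM or more. Genes were called at an adjusted p of 0.05 and a log2 difference of 0.58 (1.5-fold). Genes named were the Per genes, the BAM factors, genes called, the 12 largest non-overlapping differences of protein-coding genes in each direction at an unadjusted p of 0.05, the leading genes of each list by p and by level, the most variable genes, and genes within 5 Mb of Per1 at that p. Bmp2, Bmp4, C1qa, Csf1r, Fos, Ifit1, Igf1, Isg15, Kdm5d, Map2, Mrc1, Mylpf, Myog, Nefm, Penk, Pf4, Ptx3, Rtp4, Sfrp1, Stmn2 and Stmn3 lie outside this rule and were chosen after their values were seen. Some genes that this rule names are not reported here. Members and lists were chosen with earlier results of these data known. Transcripts (GENCODE vM21, GRCm38) were searched for near copies (at least 95% identity over 200 bases) with BLAST+ 2.17.0, for 45 genes, of which 8 had one. The fit was tested on simulated data. Alternatives were other pseudocounts, filters, scalings, models, sample sets, a replicate block and leaving out libraries. The sum of Gm6685 and Cyb5d1, the counts without single libraries for lists and for the Per1 neighbourhood, and a random term over days were added after the data were seen.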

Additional observations from a re-analysis of the deposited data

How the results depend on the processing

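The 2 genes called higher became 5 with a pseudocount of 0.01, 1 with a pseudocount of 1, 1 in the fit of the 6 libraries compared (Gm25108, with neither Gm6685 nor Xaf1), 1 after rescaling to TPM, 1 with voom weights on fragments, 0 in the fit of the 9 libraries of day 0 and 0 with sample weights. The replicate block also left 1 gene called higher (Gm6685, limma adjusted p = 0.0215) and changed no other count by over 1.5 times. Same-numbered WT and Per1-/- libraries did not deviate together (r = -0.17, -0.09 and -0.09). These deviations are taken around means of 3 libraries and cannot settle whether the numbers pair the genotypes. The 0 genes called lower became 2 with all genes above 0 and 1 in the fit of 9 libraries. The 188 genes higher at the unadjusted p with the fold became 65 with a pseudocount of 1, 122 among genes of at least 1 FPKM, 524 with all genes above 0, 107 and 111 in the fits of 6 and 9 libraries, and 341 with no minimum fold. The 151 lower became 89, 445 and 378 with a pseudocount of 1, with all genes above 0 and with no minimum fold. The changes of the difference to day 2 and day 4, 0 genes each, became 2 and 2 with all genes above 0, where genes listed at 0 on day 0 in both genotypes lead. Leaving out 1 library gave 0 to 2 genes called higher, 0 to 2 called lower, 170 to 310 higher and 98 to 276 lower at the unadjusted p with the fold. The calls were 0 higher without WT replicate 1, WT replicate 3, Per1-/- replicate 1 or Per1-/- replicate 3, and 1 without WT replicate 2. Without Per1-/- replicate 2 they were 2 higher and 2 lower (Slc29a2 and Gm49195), and 310 and 254 genes passed the unadjusted p with the fold. Without WT replicate 2 and WT replicate 3 the lower count was 98 and 276. Gm6685 lost its call in 7 of 18 alternatives (log2 1.65 to 2.42, adjusted p 0.000588 to 0.514) and Xaf1 in 13 of 18 (log2 1.03 to 2.21, adjusted p 0.0212 to 1). The cause was not tested. A random term for equal numbers within a genotype over days, added after the data were seen, gave 2 called higher and 0 lower. Of the values for single genes, lists and distances, 739 counted as the same and 18 of lists or distances moved by over 1 SD. Among single genes 20 values lost a call, 1 (Slc25a18) gained one and 0 reversed sign. The same meant sign and call kept for a gene, and a shift within 1 SD for a list or distance. Signs of list medians were not counted and some changed: that of macrophage markers was 0.55, and -0.17 without Per1-/- replicate 3. With 3 libraries per group, 1 with little Xist RNA, differences of single cultures and of genotype are hard to separate, and genes of few fragments carry the most counting error.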

Other observations

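The sets of genes called under other settings held mostly genes of low level. With a pseudocount of 0.01, Scg5, Klhl34 and Slc25a18 were called higher beside Gm6685 and Xaf1. Klhl34 was at 0 in all 3 WT libraries and had 1, 5 and 2 fragments in Per1-/-, and 7, 8 and 3 in the libraries labelled Per2-/-. With all genes above 0, Tslrn1 was called higher (WT listed at 0, Per1-/- mean 0.13 FPKM) and the gene models Gm7583 and Gm7850 lower. Slc29a2, a nucleoside transporter, was called lower only in the fit without Per1-/- replicate 2 among those run, at 4.83, 4.46 and 3.91 FPKM in WT and 1.65, 7.82 and 2.44 FPKM in Per1-/-. Crabp1, a retinoic acid binding protein, was at 469, 173 and 1172 FPKM in WT and at 661, 589 and 552 FPKM in Per1-/-. These genes were chosen after their values were seen.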
